A study of Mus musculus with 6 samples.

Results

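Txnip and Gm15441 are a sense and antisense pair of genes at a single mouse locus, and both were read in every liver library of the study. They were found by symbol among the 18444 genes with at least 1 read, as Txnip (gene ID 56338) and Gm15441 (gene ID 100038464), so that 2 genes of 18444 are described here. The pair was chosen by how its read counts differed between these libraries, and its values are therefore given as a description, without a test. The study gave JT003, a peptide agonist of the adiponectin receptors AdipoR1 and AdipoR2, to mice with diet-induced or toxin-induced liver disease. All mice were male, of strain C57BL/6 by the labels and C57BL/6J by the methods. The age given is 6 to 8 weeks. In the diet model this cannot be the age at sacrifice, since the diets lasted 16 weeks. The diet model comprised SD, a chow diet control, HFD, a high-fat diet labelled as NASH (non-alcoholic steatohepatitis), and HFD + JT003. By the methods the diets lasted 16 weeks, with JT003 for 4 weeks at 500 μg/kg daily. The CCl4 model comprised corn oil, the vehicle control, CCl4 as a 20% solution every 3 days for 6 weeks, labelled as liver fibrosis, and CCl4 + JT003, with JT003 for 3 weeks. All mice were fasted for 8 hours before sacrifice. With diets of 16 weeks and CCl4 or corn oil for 6 weeks, mice of the diet model were older at sacrifice than those of the CCl4 model. Each of these 6 conditions has 1 library of liver RNA, and the number of mice whose RNA it holds is not stated. There is thus no error between mice for any value below, and each comparison is between 2 libraries.

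TXNIP, the thioredoxin-interacting protein, is an α-arrestin. It binds reduced thioredoxin and inhibits it, and it promotes the removal of glucose transporters from the cell surface. Its gene is switched on by glucose through ChREBP and MondoA, which bind a carbohydrate response element close to its start, and the protein has been linked to activation of the NLRP3 inflammasome. Gm15441 is a long noncoding RNA of mouse liver, transcribed from the opposite strand, which is known to be induced by fasting and by agonists of the fatty acid sensor PPARα and to lower Txnip.

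In GENCODE M21 (GRCm38, chromosome 3) the full-length Txnip transcript has 8 exons and 2827 bases on the plus strand. The longer Gm15441 transcript has 4 exons and 1653 bases on the minus strand. Its start lies 8844 bases downstream of the Txnip start, and it runs back through the whole of Txnip and past its start. The exons of the pair share 606 bases, which are 36.7% of the longer Gm15441 transcript and 21.4% of that of Txnip, and 327 of these are in the Txnip coding sequence. Exon 2 of this Gm15441 transcript lies wholly within coding exon 5 of Txnip, and exon 3 shares 441 bases with exon 1 of Txnip. A shorter Gm15441 transcript has 3 exons and 659 bases, starts 142 bases before Txnip in the other direction and shares 0 exonic bases with it.

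**Figure D1:**
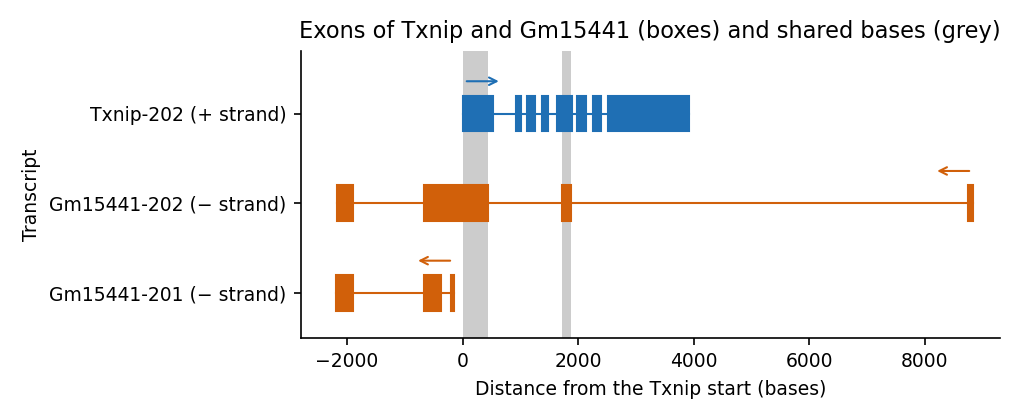
Exons of Txnip and of the longer and shorter Gm15441 transcripts (boxes, GENCODE M21) against the distance from the Txnip start in bases, with arrows for the direction of transcription. The grey bands mark the 606 bases that exons of Txnip and the longer Gm15441 transcript share, 441 at exon 1 of Txnip and 165 within exon 5.

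The complementary exons are shown because they are where reads of the pair can be told apart by strand alone. Exon 2 of the longer Gm15441 transcript has 165 bases at chr3:96559678-96559842 (GRCm38, minus strand), and exon 5 of Txnip has 257 bases at chr3:96559589-96559845 (plus strand). Both are printed 5′ to 3′, and capitals mark the stretch in which they are reverse complements of each other, which is all of the Gm15441 exon.
Gm15441 exon 2: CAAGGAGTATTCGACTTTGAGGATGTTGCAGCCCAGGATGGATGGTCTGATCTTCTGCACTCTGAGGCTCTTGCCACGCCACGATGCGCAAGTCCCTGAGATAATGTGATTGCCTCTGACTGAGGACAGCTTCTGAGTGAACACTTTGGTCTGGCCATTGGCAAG
Txnip exon 5: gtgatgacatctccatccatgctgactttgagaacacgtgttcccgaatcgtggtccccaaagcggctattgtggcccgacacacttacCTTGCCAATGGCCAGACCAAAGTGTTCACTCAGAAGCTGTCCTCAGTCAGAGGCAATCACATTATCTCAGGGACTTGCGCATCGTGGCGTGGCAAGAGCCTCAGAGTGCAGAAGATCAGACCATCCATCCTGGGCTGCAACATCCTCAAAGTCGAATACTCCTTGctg

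The 250 bases before the Txnip start are shown because they hold the element through which glucose acts on Txnip and are at the same time exon sequence of the antisense RNA. They lie at chr3:96557707-96557956 (RefSeq, GRCm38.p6, plus strand), and their complement is bases 710 to 959 of the longer Gm15441 transcript. Capitals mark the motifs found.
Txnip upstream: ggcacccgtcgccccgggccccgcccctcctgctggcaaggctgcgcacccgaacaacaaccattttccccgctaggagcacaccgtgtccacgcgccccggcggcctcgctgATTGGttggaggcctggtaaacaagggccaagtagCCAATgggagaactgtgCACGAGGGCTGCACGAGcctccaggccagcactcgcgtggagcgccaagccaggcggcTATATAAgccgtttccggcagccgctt
A pair of CACGNG half-sites in the same orientation and 5 bases apart, 1 layout of a carbohydrate response element, was searched on both strands. It was found at -85 to -69, counting -1 as the base before the start. Of 32841 upstream windows of this length in the RefSeq table, 15 (0.0457%) held such a pair. CCAAT was found at -102 and, on the other strand, at -137, and 33.9% of windows held it. The TATA box TATATAA, which 3.04% of windows held, was found at -27. A direct repeat of AGGTCA with 1 base between its copies, a layout that PPARα can bind, was not found in this window and stood in 0.0335% of windows. Of the 15 genes of a list of PPARα targets that have a window, 0 held this repeat, so its absence here says little. The start of the longer Gm15441 transcript was not searched. Of the 15 genes of a carbohydrate response list that have a window, 0 held the CACGNG pair. Half-sites in another orientation or at another spacing were not searched, so this count does not show that these genes lack such an element.

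The level of Txnip was moderate to high in every library and that of Gm15441 ranged over more than an order of magnitude. Levels are compared as FPKM, the authors' reads scaled to transcript length and library, since the transcripts differ in length. In SD, HFD and HFD + JT003, the FPKM of Txnip was 68.3, 33.8 and 71.4. In corn oil, CCl4 and CCl4 + JT003, it was 51.1, 108.8 and 70.5. The lowest level of Txnip was thus in HFD and the highest in CCl4, 3.21 times apart. For Gm15441 the FPKM was 165.2 in SD, 2.88 in HFD and 10.7 in HFD + JT003. It was 22.2 in corn oil, 5.65 with CCl4 alone and 41.7 in CCl4 + JT003. In both models the lowest Gm15441 level was that of the injured, untreated liver, and the level in SD was 57.4 times that in HFD. By FPKM, Gm15441 ranked 444th among the genes in SD and 8139th in HFD, while Txnip ranked between 710th and 1667th.

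**Figure D2:**
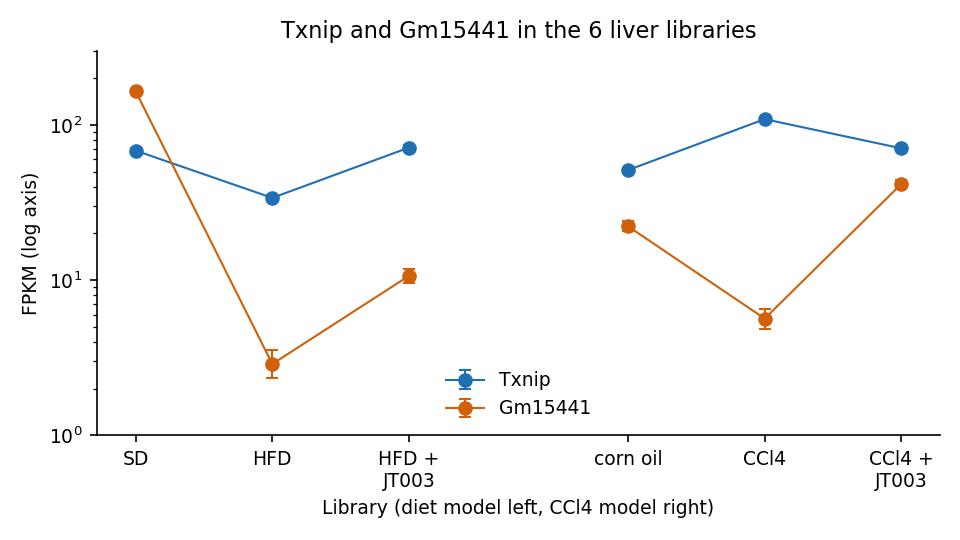
FPKM on a log axis (vertical) of Txnip and Gm15441 in the 6 libraries (horizontal), 1 library per point, joined by lines within a model. Bars are 95% Poisson counting intervals of the reads and hold no error between mice. Gm15441 lies above Txnip in SD only, with 165.2 against 68.3.

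Ordered by TMM-scaled counts over the 6 libraries, Txnip was highest in CCl4, followed by SD, HFD + JT003, CCl4 + JT003, corn oil and HFD. The order of Gm15441 was SD, CCl4 + JT003, corn oil, HFD + JT003, CCl4 and HFD. Between neighbours in these orders the smallest log2 ratio was that of Txnip between SD and HFD + JT003, at 0.07 (95% counting interval 0.01 to 0.14). The intervals of all neighbours left out 0, but they cover counting error only. If copies of a molecule were counted as separate reads, these intervals are too narrow. With 1 library per condition no neighbours can be said to differ beyond the spread between mice. The range over the 6 libraries was 1.64 on the log2 scale for Txnip and 5.94 for Gm15441. Among 10279 genes with at least 100 counts in their highest library, whose median range was 0.83, 12.5% had a larger range than Txnip and 47 genes (0.457%) a larger one than Gm15441. The control libraries of the models differed from each other too. Gm15441 was 6.95-fold higher in SD than in corn oil, and Txnip 1.25-fold.

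Gm15441 made up 58.9% of the reads of the pair in SD (95% Clopper-Pearson interval 57.9% to 59.9%), 4.80% in HFD (3.90% to 5.83%) and 8.14% in HFD + JT003 (7.34% to 8.99%). In the CCl4 model it made up 20.5% in corn oil (19.2% to 21.9%), 2.98% with CCl4 alone (2.58% to 3.43%) and 25.9% in CCl4 + JT003 (24.7% to 27.1%). Per length, its level was 2.42 times that of Txnip in SD, whereas in the other libraries that of Txnip was 1.69 times (CCl4 + JT003) to 19.3 times (CCl4) that of Gm15441. The antisense share was thus larger with JT003 in both models. In HFD + JT003 it was still far below that of SD, and in CCl4 + JT003 it was above that of corn oil.

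In the diet model both transcripts were lower with HFD and higher with JT003, so they moved the same way. Txnip had 3886 reads in SD, 1885 in HFD and 3996 in HFD + JT003. Gm15441 had 5570, 95 and 354 reads in the same libraries. The library of HFD was the lowest for both, and HFD + JT003 was level with SD for Txnip but far below it for Gm15441. A log2 ratio is of TMM-scaled counts with a prior count of 2, with a 95% counting interval, and a ratio of at least 1 in size is called past the fold. For HFD over SD the log2 ratio of Txnip was -1.13 (-1.22 to -1.06), which is 2.20-fold lower. That of Gm15441 was -5.93 (-6.27 to -5.67), the 4th lowest of 13335 genes. Of all genes with at least 10 counts, 4.15% were past the fold in this direction and 5.94% in the other, and the pair is among the former by the way it was chosen. For HFD + JT003 over HFD the log2 ratio was 1.06 (0.98 to 1.14) for Txnip and 1.85 (1.54 to 2.22) for Gm15441, where 2.35% of 13453 genes were past the fold in this direction and 2.36% in the other. Against SD, the library of HFD + JT003 differed by -0.07 (-0.14 to -0.01) for Txnip and by -4.08 (-4.25 to -3.93) for Gm15441, with 4.56% of 13402 genes past the fold in the lower direction and 6.57% in the higher. Other scalings and FPKM turned the sign of this small Txnip value in 4 of 7 settings. The 3 comparisons of a model share libraries, so their values are not independent of each other.

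In the CCl4 model the transcripts moved in opposite directions. Txnip had 2804 reads in corn oil, 6187 with CCl4 alone and 3858 in CCl4 + JT003, and was highest in CCl4. Gm15441 had 723, 190 and 1350 reads and was lowest in CCl4. For CCl4 over corn oil the log2 ratio of Txnip was 0.85 (0.79 to 0.92), short of the fold, and that of Gm15441 was -2.20 (-2.45 to -1.98). In this comparison 4.91% of 13602 genes were past the fold in the lower direction and 8.76% in the higher. For CCl4 + JT003 over CCl4 the log2 ratio of Txnip was -0.69 (-0.75 to -0.63), again short of the fold. That of Gm15441 was 2.81 (2.60 to 3.04), which is 6.99-fold higher and the 27th highest of 13785 genes, where 4.64% were past the fold in this direction. Against corn oil, CCl4 + JT003 was higher by 0.16 (0.09 to 0.23) for Txnip and by 0.60 (0.47 to 0.73) for Gm15441, neither past the fold, where 7.99% of 13731 genes were, and 3.37% were lower past it.

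The size of the Txnip difference in the CCl4 model rested on the CCl4 library. One of the authors' comparison tables holds CCl4 counts that sum to 2.97 times the total of that library, and only 24 genes are below it, by 0.99 of a count at most, so they appear to be pooled over it and other libraries that are not named. Taking the CCl4 library out of these pooled counts, a step added after these values had been seen, left 8669.85 counts of Txnip and 339.68 of Gm15441. As CPM, counts scaled to the total of a library, this was 218 for Txnip, against 307 in the CCl4 library, 144 in corn oil and 199 in CCl4 + JT003. The remainder of the pool was thus closer to CCl4 + JT003 for Txnip than the CCl4 library was. With it in place of the library, the log2 ratio of Txnip was 0.27 for CCl4 over corn oil and -0.12 for CCl4 + JT003 over CCl4. For Gm15441 the remainder had 8.54 CPM, close to the 9.43 of the CCl4 library and below the 37.2 of corn oil and the 69.7 of CCl4 + JT003. The signs of both transcripts were thus opposite with either source, while the Txnip part shrank to near 0. The CCl4 library also stood apart in genes of cell division, with a summed FPKM of 75.95 over 6 mitosis markers against 0.86 to 5.33 in the other 5 libraries. Summed marker FPKM in corn oil, with CCl4 alone and in CCl4 + JT003 was 26.1, 83.4 and 97.8 for 6 macrophage markers and 26.7, 104.5 and 105.7 for 5 bile duct markers, which were higher in both CCl4 libraries. For 6 stellate and myofibroblast markers it was 12.01, 48.23 and 25.97, highest in CCl4 as Txnip was. Most of the 48.23 was collagen, with 20.4 for Col1a1 and 19.5 for Col3a1. Single markers of this set were divided, with 4 higher and 2 lower for CCl4 over corn oil. The lower ones were Acta2, with a log2 ratio of -0.89, and Lrat, with -0.21. For 6 endothelial markers the sum was 36.1, 22.9 and 36.5, lowest in CCl4 as Gm15441 was. In the diet model the stellate sum was 10.1, 29.6 and 15.2 and the endothelial sum 59.5, 60.8 and 75.9 in SD, HFD and HFD + JT003. The part of any of these in the values of the pair was not tested, and in bulk liver fewer cells of a type and less RNA per cell cannot be told apart. All 6 hepatocyte markers were read in every library, with a summed FPKM of 42264 to 52486, most of which is Alb. Single markers differed, with log2 ratios for CCl4 over corn oil of -2.24 for Cyp2e1, a cytochrome P450 that activates CCl4, and -1.09 for Tat, and of -1.15 for Cps1 for HFD over SD.

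**Figure D3:**
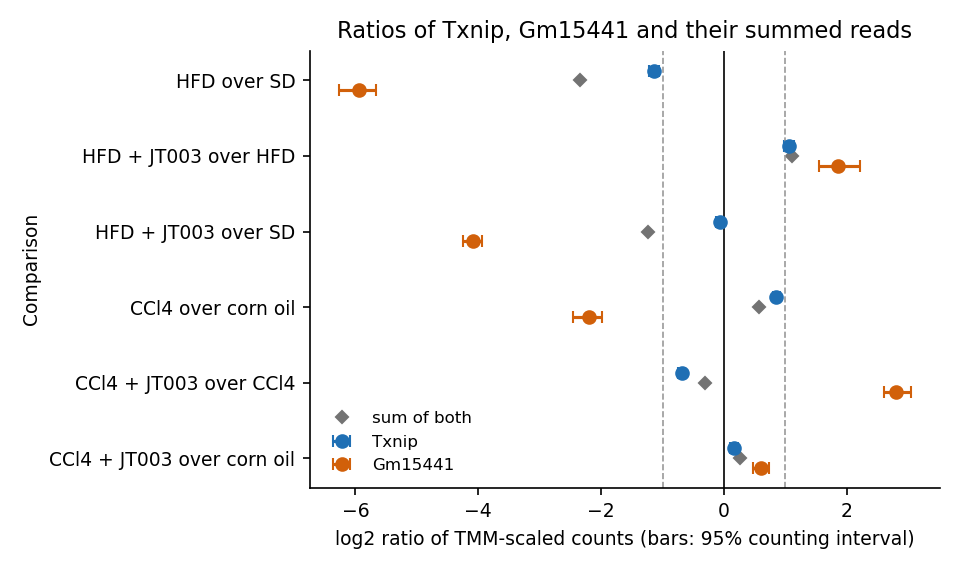
Log2 ratios of TMM-scaled counts (horizontal) for Txnip, Gm15441 and their summed reads in the 6 comparisons between libraries (vertical). Bars are 95% counting intervals and dashed lines mark a log2 ratio of -1 and 1. Txnip and Gm15441 lie on opposite sides of 0 for CCl4 over corn oil (0.85 and -2.20) and CCl4 + JT003 over CCl4 (-0.69 and 2.81).

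In all, the signs of the pair were opposite in 2 of 6 comparisons, both with the CCl4 library, and the same in 4, of which HFD + JT003 over SD was opposite in the 4 settings that turned Txnip. Because the genes overlap on opposite strands, and the sources used here do not state whether strand was kept, reads from the 606 shared bases may have been split between them. The sum of both genes does not depend on such a split. It was 9456 reads in SD, 1980 in HFD and 4350 in HFD + JT003, and 3527 in corn oil, 6377 with CCl4 alone and 5208 in CCl4 + JT003. The log2 ratio of the sum was -2.35 for HFD over SD and 1.11 for HFD + JT003 over HFD. It was 0.57 for CCl4 over corn oil and -0.30 for CCl4 + JT003 over CCl4. The sum thus had the sign of Txnip in each of these comparisons. The remaining 1047 bases of the longer Gm15441 transcript have no Txnip exon.

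The nearest listed genes on either side did not share these differences. Hjv, the gene before the locus, which encodes the iron regulator hemojuvelin, had 1616 to 2353 reads, and its log2 ratios ran from -0.50 to 0.03. Polr3gl, the first gene after it, which encodes a subunit of RNA polymerase III, had 204 to 314 reads and log2 ratios from -0.55 to 0.31. Ankrd34a, the next gene, had at most 2 reads in a library.

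Other sense and antisense pairs were set beside this pair. Among pairs named by the os suffix, 94 were in the files and 38 to 42 per comparison had at least 10 counts in both genes. Their signs were opposite in 13 of 38 for HFD over SD, 22 of 41 for HFD + JT003 over HFD, 16 of 39 for CCl4 over corn oil and 19 of 42 for CCl4 + JT003 over CCl4. In the same order, both genes were past the fold in 2, 0, 1 and 0 of these pairs, and in none of them in opposite directions. So few pairs cannot set the Txnip pair apart. Txnip too was short of the fold where the signs of its pair were opposite. Taken instead by exon overlap in GENCODE, a definition added after the data were seen, 391 antisense pairs were in the files, and 43.2% (CCl4 over corn oil) to 49.7% (HFD over SD) of those with enough counts had opposite signs in these comparisons. Many of these signs rest on few reads. With at least 100 counts in both genes, the os pairs with opposite signs were 1 of 7, 3 of 6, 5 of 8 and 5 of 12 in the same order. By the size of its log2 ratio Gm15441 ranked 1st among the antisense genes for HFD over SD and for CCl4 + JT003 over CCl4, and 2nd for the other 2. By the difference between the log2 ratios of sense and antisense gene, the Txnip pair ranked 1st for HFD over SD, for CCl4 over corn oil and for CCl4 + JT003 over CCl4, and 43rd for HFD + JT003 over HFD. By these 2 measures it ranked 1st and 2nd for HFD + JT003 over SD, and 61st and 94th for CCl4 + JT003 over corn oil. The pair was chosen by how its counts differed in these libraries, so high ranks follow from that choice.

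Among the α-arrestins related to Txnip, 1 gene other than Txnip was past the fold in a comparison of the models with their controls or with JT003. Of the 6 genes of the family, Arrdc5 was not among the genes with reads. Arrdc3, which is linked to the regulation of adrenergic receptors, had 673 reads in SD, 2898 in HFD and 3434 in HFD + JT003. For HFD over SD its log2 ratio was 2.01 (1.89 to 2.14), opposite in sign to that of Txnip, where 5.94% of all genes were higher past the fold. With JT003 it had the sign of Txnip in both models, at 0.22 (0.15 to 0.29) over HFD and -0.41 (-0.56 to -0.26) over CCl4, and its ratio for CCl4 over corn oil was -0.01. Arrdc4, the closest relative of Txnip and like it a glucose-responsive gene, had log2 ratios of 0.35, -0.05, 0.23 and -0.10. Their order is HFD over SD, HFD + JT003 over HFD, CCl4 over corn oil and CCl4 + JT003 over CCl4. Those of the CCl4 model had the signs of Txnip. Their counting intervals, -0.04 to 0.52 and -0.36 to 0.16, both held 0, so counting error alone could turn these signs. Arrdc1 and Arrdc2 also had none past the fold.

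In the thioredoxin system, in which TXNIP acts, 0 of 15 genes were past the fold in any of these 4 comparisons. Over all genes 10.1%, 4.71%, 13.7% and 8.87% were past it in either direction, so a count of 0 in a list of this size is close to the background, and the medians, in the same order, were -0.23, -0.05, -0.13 and -0.07. Txn1, the thioredoxin that TXNIP binds, had log2 ratios of 0.43, -0.13, -0.13 and 0.12. The largest in size was -0.94, that of Srxn1, a sulfiredoxin, for CCl4 + JT003 over CCl4.

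In the CCl4 model Txnip had the sign of most genes of the carbohydrate response list. For CCl4 over corn oil 7 of 17 were higher past the fold and 0 lower, against 8.76% and 4.91% of all genes, and the median log2 ratio was 0.90 against 0.01 over all genes. These included Pklr, the liver pyruvate kinase, at 1.84, the fatty acid synthase gene Fasn at 1.75 and Acly, which supplies cytosolic acetyl-CoA, at 1.62. For CCl4 + JT003 over CCl4, 5 were lower past the fold and 0 higher, where 4.24% and 4.64% of all genes were, and the median was -0.37. These were Pklr at -1.63, Fasn at -1.51, Acly at -1.39, G6pc at -1.18 and Tkfc, a triose kinase of fructose metabolism, at -1.12. Both of these comparisons use the CCl4 library. With the pool without that library Txnip was at 0.27 and -0.12, and the list was not computed that way. In the diet model the list was divided. For HFD over SD 2 genes were higher past the fold, Thrsp (3.72) and Pklr (1.10), and 3 were lower, among them G6pc (-2.20) and Gpd1 (-1.03), against 5.94% and 4.15% of all genes. G6pc, the glucose-6-phosphatase gene, was the only gene of this list that was past the fold for HFD + JT003 over HFD, at 1.53, and it had the sign of Txnip in all 4 comparisons. Mlxipl, which encodes ChREBP, had log2 ratios of 0.64, 0.04, -0.16 and 0.19.

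Targets of PPARα went with Gm15441 in the diet model. For HFD over SD 15 of 22 were lower past the fold and 0 higher, and all 22 were below 0, with a median of -1.64 against 0.00 over all genes, of which 4.15% were lower past the fold. For HFD + JT003 over HFD 8 were higher past the fold and 0 lower, against 2.35% and 2.36% of all genes, with a median of 0.46. The difference of Gm15441 with HFD, -5.93, was larger in size than that of any gene of the list, of which Cyp4a14, a fatty acid ω-hydroxylase, was the lowest at -4.90, followed by Ehhadh, an enzyme of peroxisomal β-oxidation, at -4.67 and Pdk4, a kinase that inhibits pyruvate dehydrogenase, at -4.18. In the CCl4 model the counts of the list were close to the share of all genes. For CCl4 over corn oil 2 genes were higher past the fold, Pdk4 at 2.05 and Acot3 at 1.10, and 2 were lower, Cyp4a14 at -1.66 and Cyp4a10 at -1.27, with a median of -0.16, where 8.76% and 4.91% of all genes were past the fold. With total counts as library size 5 were higher. For CCl4 + JT003 over CCl4 Acot3 was higher at 1.46, and Fgf21 at -1.34 and Plin2 at -1.24 were lower, where 4.64% and 4.24% of all genes were past the fold, with a median of -0.19 beside the 2.81 of Gm15441. Ppara itself had log2 ratios of -0.23, 0.28, -0.29 and 0.06. The Cyp4a and Acot genes each have close copies between which reads could have been split, so the values of single members are uncertain.

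**Figure D4:**
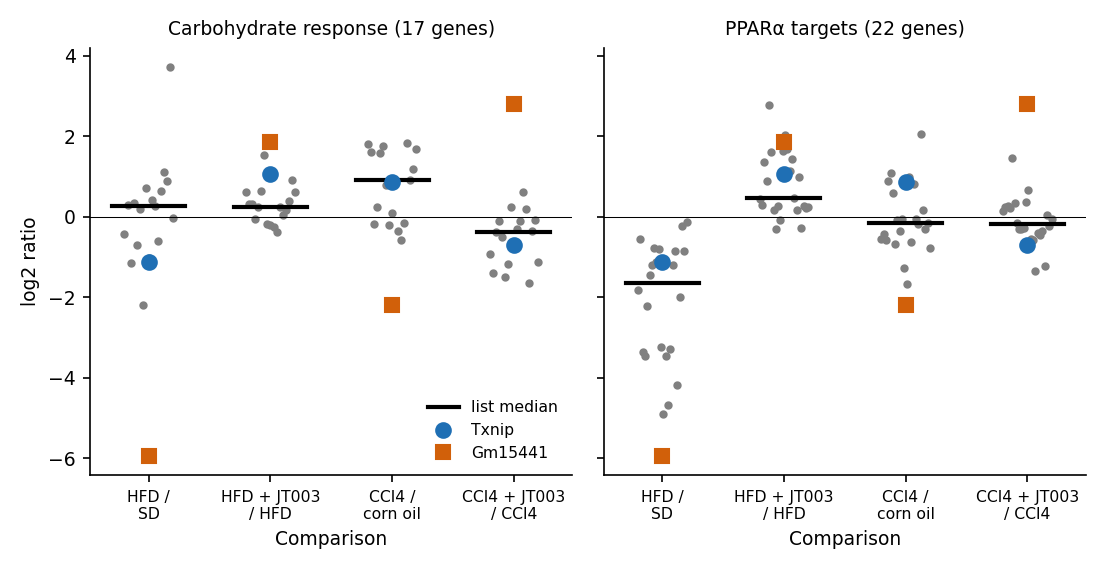
Log2 ratios (vertical) of the 17 genes of the carbohydrate response list and the 22 PPARα targets (grey points) in 4 comparisons between libraries (horizontal), with the list median (bar), Txnip (circle) and Gm15441 (square). For CCl4 over corn oil Txnip, at 0.85, lies close to the carbohydrate response median of 0.90, and for HFD over SD Gm15441, at -5.93, lies below all PPARα targets. With the pooled CCl4 counts without the CCl4 library, Txnip was at 0.27 for CCl4 over corn oil, and the list was not computed that way.

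Further lists covered the inflammasome and glucose uptake, in which TXNIP is known to act, and the glucocorticoid response. Of 8 inflammasome genes, 1 was higher past the fold for HFD over SD, the inflammatory caspase Casp4 at 1.44 (0.27 to 3.54) on 18 against 5 reads, and 1 for HFD + JT003 over HFD, Casp1, which cleaves pro-IL-1β, at 1.14 (0.53 to 1.91). Over all genes 5.94% and 2.35% were higher past the fold, so 1 of 8 is close to the background. Il1b, the interleukin-1β gene, had only 22, 9 and 25 reads in corn oil, CCl4 and CCl4 + JT003. With CCl4 its log2 ratio against corn oil was -1.38 (-2.88 to -0.40). With JT003 against CCl4 alone it was 1.29 (0.32 to 2.75). Both signs were those of Gm15441 and not of Txnip. In the diet model the Il1b ratio was -0.67 with HFD against SD. With JT003 against HFD alone it was -0.09 (-0.60 to 0.42), opposite in sign to both transcripts of the pair. Nlrp3, the sensor of the complex, had 0.14, 0.94, 0.34 and 0.73. Of the genes of glucose uptake and insulin response with enough counts, 1 was higher and 3 were lower past the fold for HFD over SD, and 0 and 1 for CCl4 over corn oil, where 5.94% and 4.15%, then 8.76% and 4.91%, of all genes were. With total counts these became 2 and 3, then 2 and 0, so the direction for CCl4 over corn oil rests on the scaling. Among them Slc2a1, the transporter GLUT1, had -0.76, 0.47, -0.53 and 0.40, the signs of Gm15441 in each comparison. Slc2a2, the transporter GLUT2, had a higher FPKM than Slc2a1 in every library, and its log2 ratios were 0.90, 0.39, 0.90 and -0.35. Only that for HFD + JT003 over HFD had the sign of Gm15441. Igfbp1, an insulin-repressed gene, had -3.24 and 1.29 in the diet model and 0.44 and -0.82 in the CCl4 model, the signs of Txnip. Of 10 glucocorticoid response genes, 3 were higher past the fold for HFD over SD, Mt1, Mt2 and Tsc22d3, against 5.94% of all genes. For CCl4 over corn oil Zbtb16 was higher and Mt1, Mt2 and Tat were lower, against 8.76% and 4.91% of all genes, and with total counts 2 were higher and 2 lower. For CCl4 + JT003 over CCl4 Mt1, Mt2 and Per1 were higher and Zbtb16 was lower, against 4.64% and 4.24%. The metallothionein genes Mt1 and Mt2 thus had the signs of Gm15441 in the CCl4 model and the opposite ones with HFD.

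Profiles over the 6 libraries were compared across 10278 other genes with at least 100 counts, by the root mean square (RMS) difference of log2 CPM centred on its mean. These likenesses rest on 6 libraries, of which 3 share a model, and carry no p-value. The gene most like Txnip was Il22ra1, a subunit of the interleukin-22 receptor, with an RMS difference of 0.15. Its reads were 294, 113 and 272 in SD, HFD and HFD + JT003 and 177, 372 and 208 in corn oil, CCl4 and CCl4 + JT003, so that it too was lowest in HFD and highest in CCl4. H2-Q7, Frat1, Sowahb and Lnx2 followed, of which H2-Q7, a class I histocompatibility gene, has close copies that could share its reads. The profiles most like that of Txnip turned upside down included those of Cyb5rl, Trp53i11, Sdc4 and Usp18. Sdc4, a cell-surface proteoglycan gene, had its highest level in HFD, 224.3 FPKM, and its lowest in CCl4, 108.3 FPKM.

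No gene came as close to Gm15441, whose range was larger, as these did to Txnip. The most alike was Cyp4a14, at an RMS difference of 0.87, with an FPKM of 4069 in SD, 148.8 in HFD and 612.7 in HFD + JT003, and of 2199, 820.8 and 1373 in corn oil, CCl4 and CCl4 + JT003. Like Gm15441 it was highest in SD, lowest in HFD and higher with JT003 in both models. Ppp1r3g, which targets a phosphatase to glycogen, followed, then Cyp17a1, a steroid hydroxylase gene, Tff3 and Ehhadh. Among the PPARα targets, Acot1 ranked 9th, Cyp4a10 11th and Acot2 19th in likeness to Gm15441. Upside down, the most alike was Bcl6, which encodes a transcriptional repressor, at 0.69. Its reads were 94, 1281 and 585 in the diet model and 252, 1260 and 166 in the CCl4 model, so that it was high where Gm15441 was low in each. Rgs16, Car3 and Lgals1 were also among the 5 most alike, of which Rgs16, a regulator of G protein signalling, had 1.53 FPKM in SD and 23.6 in HFD.

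**Figure D5:**
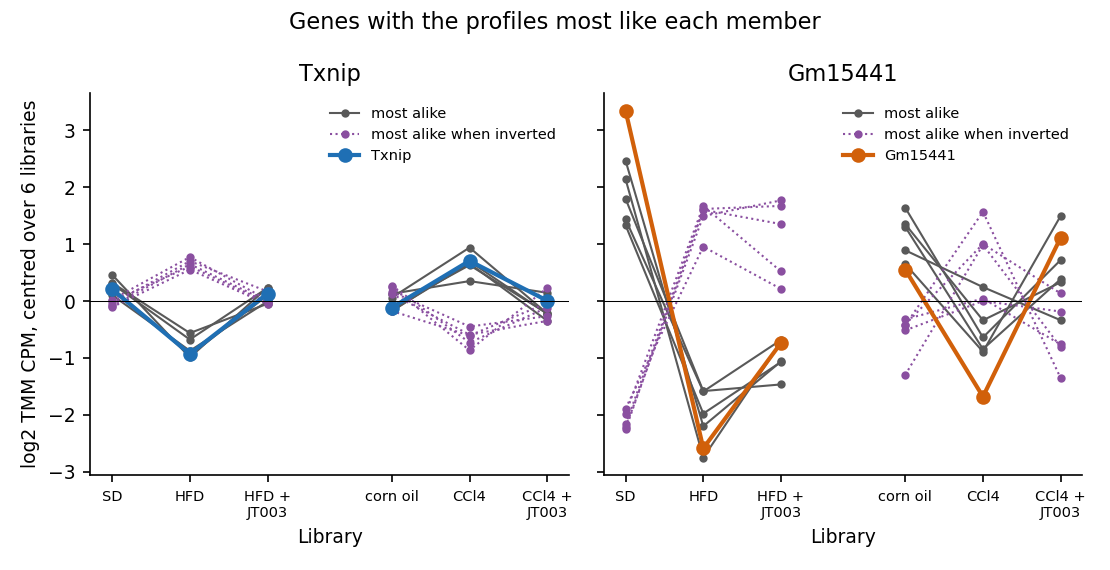
Log2 of TMM-scaled CPM centred over the 6 libraries (vertical) by library (horizontal) for Txnip (left) and Gm15441 (right), each with the 5 genes most alike (grey) and the 5 most alike when inverted (purple, dotted). Lines join libraries within a model, and Txnip is lowest in HFD (33.8 FPKM) while Gm15441 is low in both HFD (2.88 FPKM) and CCl4 (5.65 FPKM).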

How the data were processed

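The authors deposited, per library, the expected count of each gene, which RSEM estimates from the reads without normalization, and the FPKM, which scales it to transcript length and library. The submitters' processing notes name HISAT, Bowtie2 and RSEM with genome build mm9, and the strand setting is not given in the sources used here. The files hold 2 RefSeq transcripts of Txnip and 1 of Gm15441, 1673 bases long. Gene structures and sequences were read from GENCODE M21 and RefSeq on GRCm38, and no coordinate of the files was used. Of 18444 gene IDs, 18403 were in the RefSeq table and 17666 had the same symbol there. Library totals were 19374255 to 20184578 reads, and 69.9% to 70.9% of expected counts were whole.

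Expected counts were rounded and scaled by TMM (edgeR 4.0.16, R 4.3.3) within each model (3 libraries), or over all 6 for levels across models. Log2 ratios used a prior count of 2 and genes with at least 10 counts in 1 of the 2 libraries. Past the fold means 1 or more in size on this scale. Intervals are 95% Clopper-Pearson or Poisson intervals (scipy 1.17.1), checked on simulated counts. With 1 library per condition no test was made. Genes named are the pair, the lists, the 3 nearest genes in the RefSeq table on each side and the 5 genes per profile nearest to each member. A few genes that this rule names are not reported here. The pair and the lists were chosen with earlier results of these data known. The authors' 4 comparison tables hold fold changes, p-values and adjusted values, which were not used, and 7 expression columns, likewise not used. The pooled CCl4 counts of 1 table served as an alternative. Other alternatives were total counts, the size factors of DESeq2 1.42.0, Actb scaling, log2 of the FPKM plus 1 or 0.1, a prior count of 0.5, other count minima and Pearson correlation.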

Additional observations from a re-analysis of the deposited data

Results flagged for a closer look

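The direction of Txnip differed between the models, and this difference was not tested, since each condition has 1 library. With the disease model over its control the log2 ratio of Txnip was -1.13 in the diet model and 0.85 in the CCl4 model. With JT003 over the untreated model it was 1.06 in the diet model and -0.69 in the CCl4 model. With the pooled CCl4 counts without the CCl4 library, the values of the CCl4 model were 0.27 and -0.12. These had the same signs but were smaller. Gm15441 had the same sign in both models, lower in the untreated disease model and higher with JT003.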

How the results depend on the processing

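No paired analysis was possible because each condition has 1 library, and no library could be left out for the same reason. Apart from the Txnip value of HFD + JT003 over SD, no log2 ratio of either transcript changed sign under the alternatives. In HFD over SD the log2 ratio of Txnip was -1.01 with total counts, -0.99 with log2 of the FPKM plus 1 and -1.01 with log2 of the FPKM plus 0.1, and that of Gm15441 was -5.42 with log2 of the FPKM plus 1. In CCl4 over corn oil Txnip had 1.09 with total counts, 0.54 scaled to Actb, 1.08 and 1.09 with log2 of the FPKM plus 1 and plus 0.1, 0.49 with the pooled CCl4 counts and 0.27 with the pool without the CCl4 library. Gm15441 had -1.97, -2.51, -1.80 and -1.96 with total counts, Actb and these FPKM settings. In CCl4 + JT003 over CCl4 Txnip had -0.62, -0.33, -0.62 and -0.62 in the same order, and -0.33 and -0.12 with the pooled counts and the pool without the library. Scaled to Actb, Gm15441 had 3.17 there, and Txnip 1.40 in HFD + JT003 over HFD. Genes past the fold, in the order HFD over SD, HFD + JT003 over HFD, CCl4 over corn oil and CCl4 + JT003 over CCl4, numbered 1346, 633, 1860 and 1223. They numbered 543, 150, 763 and 391 with log2 of the FPKM plus 1, and 696, 188, 831 and 530 among genes with at least 100 counts. With at least 1 count they numbered 1284 in the second and 1883 in the last of these comparisons, and scaled to Actb 1920 in the last. Total counts moved the median log2 ratio of all genes by 0.12 in HFD over SD and by 0.23 in CCl4 over corn oil, and the share of genes past the fold that were higher from 58.8% to 69.0% and from 64.1% to 78.7%. Actb moved the median by 0.33 and 0.36 in the comparisons with JT003. The cause was not tested. By Pearson correlation 2 of the 5 genes most like Txnip and 0 of the 5 in each other group of alike genes were chosen again.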
